A study of Mus musculus with 2 samples.

Results

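Angiopoietin-like (ANGPTL) and C1q/TNF-related (C1QTNF, or CTRP) proteins are 2 families of secreted factors, and 10 of their genes were examined in the rhabdoid tumors (RT) of Dppa3-cre::Smarcb1 mice: Angptl1, Angptl2, Angptl4, Angptl6, Angptl7, C1qtnf1, C1qtnf2, C1qtnf3, C1qtnf6 and C1qtnf7. The genes were selected by name from the 55416 genes of the count table, and they were chosen on the counts of the same 2 libraries that are described here. Every difference given for them is therefore a description, without a test. Another 11 genes of the families (Angptl8, C1qtnf4, C1qtnf5, C1qtnf9, C1qtnf12, Erfe, Adipoq and C1ql1 to C1ql4) served as the comparison.

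Bulk RNA-seq had been performed on 2 tumors. Both came from mice that were heterozygous for a floxed Smarcb1 allele (Smarcb1 Fl/+) and carried Cre recombinase in the Dppa3 locus, which is active in primordial germ cells, on a C57BL/6 background. One tumor was labelled intracranial and the other extracranial. The paper shows stained tumors of this model beside the trigeminal nerve (intracranial) and in the maxillary region (extracranial). It does not state whether these are the sequenced tumors. By clustering on subgroup marker genes, the paper placed both sequenced tumors with the MYC subgroup, the RT with high MYC activity. No age was given. In this model the intact Smarcb1 allele has to be lost by chance, and neither normal tissue nor a second tumor per location was analysed here. With 1 library per location there is no replicate check, location cannot be told apart from tumor, mouse or tissue piece, and every interval below covers counting error only. In a bulk sample, fewer cells of a type and less RNA per cell cannot be told apart either.

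The tumor labelled intracranial held 34545846 counts and the tumor labelled extracranial 26915696. Levels are CPM, the counts relative to the scaled library size, with exact 95% Clopper-Pearson intervals. A floor of 3 counts per library, set as the limit for a count of 0, corresponded to 0.0863 and 0.112 CPM, and the wider Clopper-Pearson interval of a count of 0 reached 0.106 and 0.138 CPM (as for C1qtnf5). Smarcb1, the targeted gene, had 365 and 530 counts (10.5 and 19.8 CPM), and reads of deleted and intact alleles are not separated in these counts. The 6 keratinocyte markers summed to 19264 CPM in the tumor labelled intracranial and to 0.598 CPM in the other. Of them, 5 were more than 4-fold apart, against 5.41% of all genes with at least 10 counts in that direction. The part of this epithelial RNA in the differences below was not tested.

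ANGPTL proteins carry a coiled-coil stretch and, with the exception of ANGPTL8, a fibrinogen-like domain. They resemble angiopoietins in structure but are not ligands of the TIE2 receptor, and several of them act on lipoprotein lipase or on the extracellular matrix. C1QTNF proteins have a collagen-like stretch and a globular C1q domain, as adiponectin has, and are secreted as trimers and larger complexes. Many are made by fibroblasts, adipocytes and cartilage. Angptl7 and C1qtnf3 were included because they stand among the study's single-cell markers of tumor location. The study gives Angptl7 as a marker of spinal tumor cells, and neither tumor described here was labelled spinal. The location that C1qtnf3 marks is not given in the study's text.

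All 10 genes were above the floor in both libraries. Angptl7 (ENSMUSG00000028989), a matrix-associated protein of the cornea and the trabecular meshwork, was the most abundant of them in both tumors. It had 13969 counts (402 CPM, 395.4 to 408.7) in the tumor labelled intracranial and 20351 counts (760.5 CPM, 750.1 to 771.0) in the tumor labelled extracranial. Per kilobase of exon, this put Angptl7 at percentile 98.6 and 99.2 of the 16518 protein-coding genes above the floor in either library. The tumor labelled extracranial was thus the higher one, by 1.89-fold, with a log2 ratio extracranial over intracranial of 0.92 (95% interval 0.89 to 0.95). This is beyond counting error, and the whole interval is under 2-fold.

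C1qtnf3 (ENSMUSG00000058914), which encodes cartonectin, a factor of the growth plate and of connective tissue, differed in the other direction. Its counts were 12559 (361.4 CPM, 355.1 to 367.8) and 1389 (51.9 CPM, 49.2 to 54.7), which is 6.96-fold higher in the tumor labelled intracranial (log2 ratio -2.80, -2.88 to -2.72). In that library C1qtnf3 was close to Angptl7, whereas in the other it was far below. Since a ratio of 2 genes within 1 library needs no scaling between libraries, their counts were also divided. There were 1.11 Angptl7 counts for each C1qtnf3 count (1.09 to 1.14) in the tumor labelled intracranial and 14.7 (13.9 to 15.5) in the tumor labelled extracranial.

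The stretches upstream of both genes are shown because these genes dominate their families and differ in opposite directions, together with that of Angptl1, which was lower beside C1qtnf3 and is described below. Each is the 250 bases before the annotated start, read 5′ to 3′ on the strand of the gene, from RefSeq on GRCm38.p6, an older build than the GRCm39 build of the counts. Positions are chr4:148500463-148500712 (minus strand) for Angptl7, chr15:10952082-10952331 (plus strand) for C1qtnf3 and chr1:156838773-156839022 (plus strand) for Angptl1. Capitals mark a match to any of 4 motifs searched on both strands: the TATA box (TATAAA), the E-box bound by MYC (CACGTG), the core of the hypoxia response element (ACGTG, which also lies within CACGTG) and the AP-1 site (TGANTCA).
Angptl7: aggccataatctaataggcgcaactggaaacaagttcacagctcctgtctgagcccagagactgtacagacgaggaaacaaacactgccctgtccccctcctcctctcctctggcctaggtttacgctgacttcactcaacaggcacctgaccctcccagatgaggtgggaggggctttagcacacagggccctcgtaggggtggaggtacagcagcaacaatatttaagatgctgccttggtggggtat
C1qtnf3: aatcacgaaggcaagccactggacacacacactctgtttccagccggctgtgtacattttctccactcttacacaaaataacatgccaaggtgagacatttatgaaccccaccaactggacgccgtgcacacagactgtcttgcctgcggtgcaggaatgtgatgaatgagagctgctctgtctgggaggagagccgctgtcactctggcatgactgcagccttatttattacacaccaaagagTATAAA
Angptl1: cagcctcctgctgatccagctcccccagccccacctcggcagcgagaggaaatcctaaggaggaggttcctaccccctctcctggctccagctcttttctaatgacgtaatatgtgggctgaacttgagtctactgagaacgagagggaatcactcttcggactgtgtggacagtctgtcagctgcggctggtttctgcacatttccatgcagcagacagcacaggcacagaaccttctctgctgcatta
Of the 3, C1qtnf3 had a match, a TATAAA whose first letter lies 6 bases before the annotated start. The letters of the other motifs were in none of the 3 windows. Promoters of 8 of the 10 genes were matched by symbol. Among these, C1qtnf2 held a CACGTG, C1qtnf6 held a TGANTCA, and Angptl2, Angptl6 and C1qtnf7 held no match. Over all 32851 RefSeq promoters of this length, TATAAA was present in 12.4%, CACGTG in 6.02%, ACGTG in 16.6% and TGANTCA in 6.75%. These matches are a description of letters and not of binding.

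**Figure D1:**
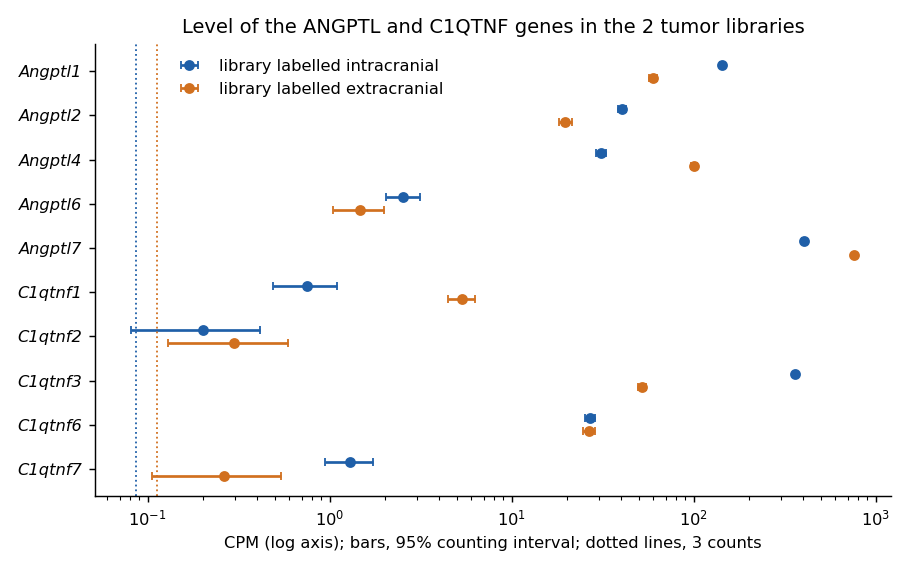
Level of each of the 10 genes in CPM (log axis) in the tumor labelled intracranial (blue) and the tumor labelled extracranial (orange), with 95% counting intervals; dotted lines mark the floor of 3 counts. Angptl7 was the highest gene in both libraries, at 402 and 760.5 CPM, and C1qtnf3 had 361.4 and 51.9 CPM.

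Angptl1, an inhibitor of endothelial growth in experimental systems, followed C1qtnf3 in direction. It had 4969 counts (143.0 CPM) in the tumor labelled intracranial and 1596 counts (59.6 CPM) in the other, a log2 ratio of -1.26 (-1.34 to -1.18). Angptl2, a factor tied to inflammation and tissue remodeling, had 1397 and 528 counts (40.2 and 19.7 CPM), a log2 ratio of -1.03 (-1.17 to -0.88). Both were lower in the tumor labelled extracranial, and their proportion to each other differed little, with 3.56 Angptl1 counts for each Angptl2 count (3.35 to 3.78) in one library and 3.02 (2.74 to 3.34) in the other. Against Angptl7 the proportion differed far more, with 2.81 Angptl7 counts for each Angptl1 count (2.72 to 2.90) in the first and 12.8 (12.1 to 13.4) in the second.

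Angptl4 was the other ANGPTL gene that was higher in the tumor labelled extracranial. It encodes an inhibitor of lipoprotein lipase and is known to be induced by fasting through PPAR receptors and by hypoxia. There were 1075 counts (30.9 CPM, 29.1 to 32.8) in the tumor labelled intracranial and 2683 counts (100.3 CPM, 96.5 to 104.1) in the other. The log2 ratio was 1.70 (1.59 to 1.80), or 3.24-fold, the largest ratio among the 5 ANGPTL genes.

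Angptl6, a factor with effects on energy expenditure, was low in both tumors. It had 88 and 39 counts (2.53 and 1.46 CPM) and a log2 ratio of -0.80 (-1.38 to -0.24). On the opposite strand, A230050P20Rik shares 265 exon bases with Angptl6 and had 195 and 395 counts. Whether the counting used the strand is not given in the sources used here, so reads of these genes cannot be told apart in the shared stretch.

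Among the C1QTNF genes, C1qtnf6 was the one that did not differ beyond counting error despite ample counts. C1qtnf6, whose product restrains the alternative complement pathway, had 936 counts (26.9 CPM, 25.2 to 28.7) and 711 counts (26.6 CPM, 24.7 to 28.6). The interval of its log2 ratio, -0.16 to 0.12 around -0.02, allows only small differences in either direction. C1qtnf1, a factor with effects on vessels and platelets, had 26 counts (0.748 CPM, 0.489 to 1.10) against 142 counts (5.31 CPM, 4.47 to 6.25) in the tumor labelled extracranial, and at 7.09-fold (log2 ratio 2.83, 2.22 to 3.49) it was as far from equality as C1qtnf3 within its interval. Which of the 2 was farther depended on the scaling.

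C1qtnf7, a metabolic factor, had 45 counts (1.30 CPM) in the tumor labelled intracranial and 7 counts (0.262 CPM) in the other. Its log2 ratio was -2.31, with a wide interval of -3.70 to -1.15 that follows from these few counts. C1qtnf2, also described as a metabolic factor, had 7 and 8 counts, and a difference was not detectable at this depth (log2 ratio 0.57, -1.09 to 2.27).

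**Figure D2:**
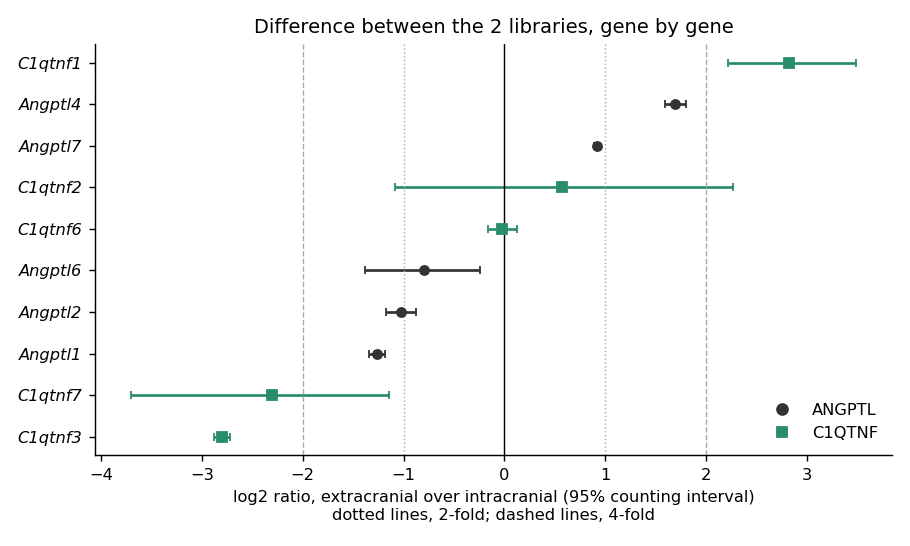
Log2 ratio extracranial over intracranial of the 10 genes, ordered by size, with 95% counting intervals; circles are ANGPTL genes and squares C1QTNF genes, dotted lines mark 2-fold and dashed lines 4-fold. C1qtnf1 (2.83) and C1qtnf3 (-2.80) lie at the ends with whole intervals beyond 4-fold, and C1qtnf6 (-0.02) has an interval that spans 0.

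A gene was called where its whole interval lay beyond a fold limit. Beyond 4-fold, 1 of the 10 genes was called higher in the tumor labelled extracranial (C1qtnf1), against 1.78% of all 21977 genes with at least 10 counts over both libraries. Another 1 of 10 was called higher in the tumor labelled intracranial (C1qtnf3), against 5.41%. Beyond 2-fold, 2 of 10 were higher in the tumor labelled extracranial (C1qtnf1 and Angptl4), against 5.86%, and 3 of 10 in the tumor labelled intracranial (C1qtnf3, C1qtnf7 and Angptl1), against 9.77%. The counts of members were used in choosing them, so nothing is read from these shares. Of the remaining 5 genes, the interval lay on 1 side of 0 for Angptl2, Angptl6 and Angptl7 and spanned 0 for C1qtnf2 and C1qtnf6. Of all genes, 29.2% had an interval above 0, 32.2% an interval below 0 and 38.6% one that spanned 0. The median log2 ratio was -0.41 over the 10 genes and -0.04 over all genes tested.

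**Figure D3:**
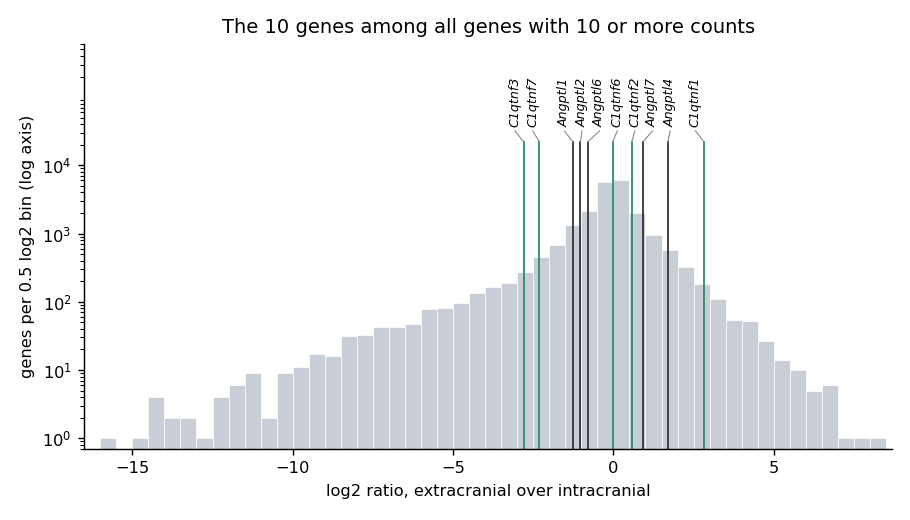
Number of genes per 0.5 log2 bin (log axis) of the log2 ratio extracranial over intracranial for all 21977 genes with 10 or more counts, with lines at the ANGPTL genes (black) and the C1QTNF genes (green). The 10 genes spread from -2.80 to 2.83 on both sides of the centre, and the long left tail down to -15.8 holds none of them.

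Levels were next compared between genes, per kilobase of exon. In the tumor labelled intracranial the order was Angptl7 (186.4 CPM per kilobase), C1qtnf3 (141.4), Angptl1 (50.3), C1qtnf6 (9.97), Angptl4 (8.74), Angptl2 (6.40), Angptl6 (1.60), C1qtnf7 (0.311), C1qtnf1 (0.239) and C1qtnf2 (0.154). The counting intervals of the last 3 overlapped, and those of all neighbours above them were apart. In the tumor labelled extracranial Angptl7 led by a wider margin (352.6 CPM per kilobase), followed by Angptl4 (28.3), Angptl1 (21.0), C1qtnf3 (20.3), C1qtnf6 (9.83), Angptl2 (3.14), C1qtnf1 (1.69), Angptl6 (0.921), C1qtnf2 (0.229) and C1qtnf7 (0.0629). There the intervals overlapped for Angptl1 and C1qtnf3 and for C1qtnf2 and C1qtnf7. C1qtnf3 thus held the second place in one tumor and the fourth in the other, and Angptl4 the fifth and the second.

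The families as a whole also differed in opposite directions, since each was dominated by 1 gene. The 5 ANGPTL genes summed to 618.7 and 941.6 CPM (log2 ratio of the sums 0.61) and the 5 C1QTNF genes to 390.6 and 84.3 CPM (-2.21). Angptl7 made up 73.5% of the summed ANGPTL level per kilobase in the tumor labelled intracranial and 86.9% in the other, while the share of Angptl1 was 19.9% and 5.17% and that of Angptl4 3.45% and 6.98%. C1qtnf3 made up 93.0% of the summed C1QTNF level per kilobase in the tumor labelled intracranial and 63.2% in the other. C1qtnf6, whose level did not differ beyond counting error, accounted for 6.56% and 30.6%. The sign of the ANGPTL sum is that of Angptl7 and Angptl4, since 3 of the 5 genes were lower in the tumor labelled extracranial and the median of the 5 was -0.80.

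**Figure D4:**
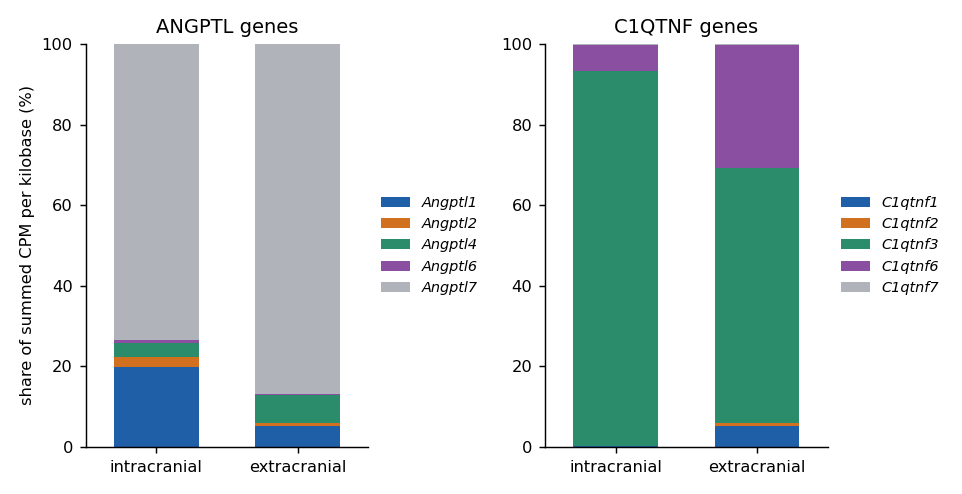
Share (%) of each gene in the summed CPM per kilobase of its family, for the 5 ANGPTL genes (left) and the 5 C1QTNF genes (right) in the libraries labelled intracranial and extracranial. Angptl7 held 73.5% and 86.9% of its family, and C1qtnf3 93.0% and 63.2%.

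The remaining 11 family genes summed to 11.3 and 20.0 CPM, of which C1qtnf12, an adiponectin paralog, contributed 9.04 and 9.42 CPM from 314 and 252 counts. Per kilobase, C1qtnf12 was at 6.62 and 6.89 CPM, above Angptl2 (6.40 and 3.14) in both tumors. Of the 8 with at least 10 counts, 2 were called beyond 4-fold, both higher in the tumor labelled extracranial (1.78% of all genes), and 6 had intervals that spanned 0 (38.6% of all genes). C1ql2, a synaptic C1q protein, had 4 and 208 counts (log2 ratio 6.08, 4.70 to 7.97), and C1qtnf9, a cardiac and vascular factor, had 0 and 28 counts. With the 0 of C1qtnf9 set to the floor of 3 counts per library this is 12.1-fold (log2 ratio 3.60). That is not a lower bound, since the exact interval of its log2 ratio starts at 3.20. Angptl8, a partner of Angptl4 in lipase control made in liver and fat, had 8 and 2 counts. Adipoq, which encodes adiponectin, had 1 and 0 counts. C1qtnf5 was listed at 0 in both libraries. In the annotation, 100% of its 1589 exon bases are also exon bases of Mfrp on the same strand, and Mfrp had 1 count in each library, so the 0 of C1qtnf5 is not read as absence.

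Position in the genome was a feature that had not been used to choose the genes. The annotation places Angptl1 on chromosome 1, Angptl2 on 2, Angptl7 on 4, C1qtnf7 on 5, Angptl6 on 9, C1qtnf1 and C1qtnf2 on 11, C1qtnf3 and C1qtnf6 on 15 and Angptl4 on 17. Angptl1, Angptl2 and Angptl7 each lie within 1 intron of a gene of the opposite strand, namely Ralgps2, Ralgps1 and Mtor. No host gene shared the direction of its guest beyond counting error. Ralgps2 had 529 and 417 counts (log2 ratio 0.03, -0.16 to 0.22) beside -1.26 for Angptl1, and Ralgps1 had 264 and 231 counts (0.18, -0.08 to 0.44) beside -1.03 for Angptl2. Mtor, the kinase of the growth-regulating mTOR complexes, had 1728 and 1045 counts (-0.35, -0.46 to -0.24) beside 0.92 for Angptl7. Amacr, a racemase gene that lies next to C1qtnf3, was lower in the tumor labelled extracranial as C1qtnf3 was (927 and 314 counts, -1.18), but less so, with 13.5 C1qtnf3 counts for each Amacr count (12.7 to 14.5) against 4.42 (3.91 to 5.02).

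Exon bases were shared with another gene for 4 of the 10 genes, always on the opposite strand. Besides Angptl6, these were C1qtnf1 (642 bases with Gm11747, which had 1 count in each library), Angptl1 (465 bases with Gm37802, 23 and 8 counts) and C1qtnf6 (117 bases with Gm49490, 12 and 2 counts). The partners of these 3 had few counts beside those of the genes themselves, except that C1qtnf1 had only 26 counts in the tumor labelled intracranial.

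Lipases and their partners are the best known targets of ANGPTL proteins. Of 7 such genes, 1 was beyond 4-fold higher in the tumor labelled extracranial (1.78% of all genes) and 1 in the other (5.41%). Lpl, lipoprotein lipase itself, had 203 and 1613 counts (5.84 and 60.3 CPM, log2 ratio 3.37, 3.16 to 3.58), so it was higher together with its inhibitor Angptl4. The ratio of Lpl was the larger one, with 5.30 Angptl4 counts for each Lpl count (4.55 to 6.18) in the tumor labelled intracranial and 1.66 (1.56 to 1.77) in the other. Gpihbp1, which carries lipoprotein lipase onto the capillary wall, had 153 and 563 counts (2.26). Lipg, endothelial lipase, differed in the other direction, with 1082 and 124 counts (-2.75, -3.03 to -2.48). Furin, a protease that cleaves ANGPTL4, had 4774 and 2707 counts (-0.44).

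Angptl4 is a known target of PPAR receptors and of hypoxia, and the part of either in its ratio was not tested. Of 8 hypoxia response genes, 7 had intervals below 0 (32.2% of all genes), 2 of them beyond 4-fold (5.41% of all genes), and the median log2 ratio was -0.77. Egln3, an oxygen sensor (538 and 34 counts, -3.61), and Adm, adrenomedullin (444 and 38 counts, -3.17), were farthest from 0, and Car9 alone was higher in the tumor labelled extracranial (51 and 92 counts, 1.23). PPAR genes went both ways, with a median of -0.11. Of 6 PPAR receptors and targets with at least 10 counts, 2 were beyond 2-fold on the side of Angptl4 (5.86% of all genes) and 0 on the other (9.77%). The 2 were Pparg (30 and 151 counts, 2.71) and Fabp4 (273 and 785 counts, 1.90). Pdk4, Plin2 and Cpt1a, commonly used as PPAR targets, had log2 ratios of -1.02, -0.45 and -0.18.

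Of the ANGPTL receptors, 1 was called. Among 6 genes of ANGPTL receptors, 1 was beyond 2-fold higher in the tumor labelled extracranial (5.86% of all genes). This was Pirb, an inhibitory immune receptor for several ANGPTL proteins (2051 and 5947 counts, 1.91, 1.84 to 1.99). Lilrb4a, an immune receptor of the same family, was also higher in the tumor labelled extracranial, with 1306 and 1991 counts and an interval across 2-fold (0.99, 0.88 to 1.09). Macrophage markers, described below, were higher there too (median 1.65), and their part in the ratios of Pirb and Lilrb4a was not tested. The integrin subunits Itga5, Itgb1, Itgb3 and Itgav lay between -0.72 and 0.19. The adiponectin receptors Adipor1 and Adipor2 and the binding protein Cdh13 lay between -0.29 and 0.08. Angiopoietins, the name-giving relatives, were low, with 260 and 231 counts of Angpt2 and 21 and 20 of Angpt1. The receptor gene Tie1, which also stands among the endothelial markers below, had 417 and 758 counts (1.24, 1.06 to 1.41).

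**Figure D5:**
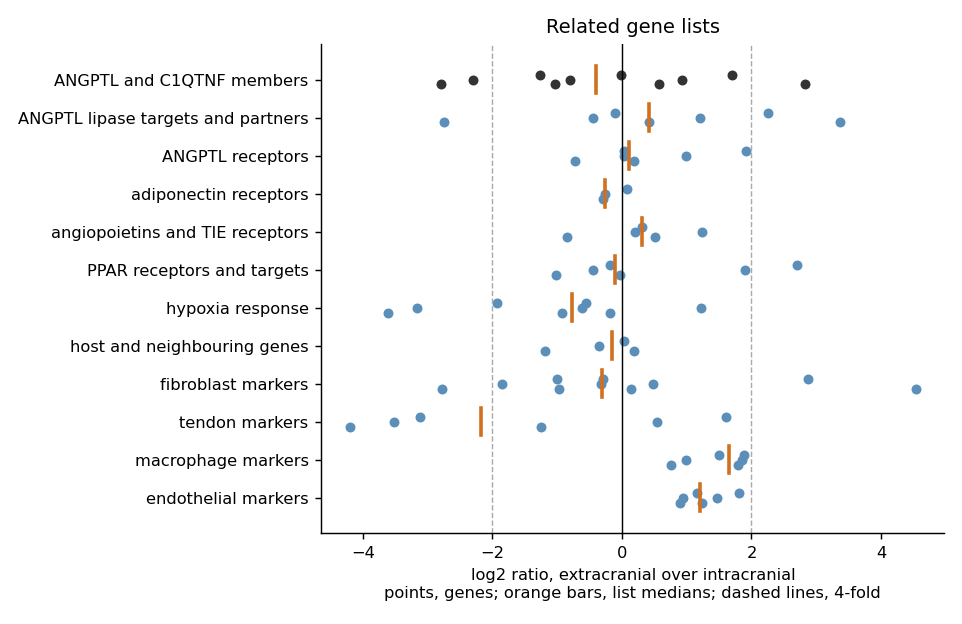
Log2 ratio extracranial over intracranial of the 10 genes and of the genes in related lists; points are genes, orange bars list medians and dashed lines 4-fold. The hypoxia (-0.77) and tendon (-2.18) medians lie left of 0, and the macrophage (1.65) and endothelial (1.20) medians right of it. The tendon median includes Tnmd, which had only 2 and 7 counts and was under the count minimum.

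Several cell type markers differed in the same direction as some of these genes, and their part in the differences was not tested. Each gene has 1 ratio here, so a shared direction does not show that genes vary together. Most tendon markers were lower in the tumor labelled extracranial, as C1qtnf3 and Angptl1 were. They summed to 1207 and 143.0 CPM, of which Fmod had 919.8 and 80.1 CPM. Of the 5 with at least 10 counts, 3 were beyond 4-fold (5.41% of all genes), namely Fmod, Comp and Mkx at -3.52, -4.21 and -3.12. Tnmd, the defining gene of mature tendon, had only 2 and 7 counts. Thbs4, a matrix protein of tendon, was higher in the tumor labelled extracranial (1051 and 1177 counts, 0.54, 0.42 to 0.66). C1qtnf3 counts per Fmod count were 0.393 (0.385 to 0.401) in the tumor labelled intracranial and 0.648 (0.605 to 0.693) in the other. Fibroblast markers went both ways. Beyond 4-fold, 2 of 10 were higher in the tumor labelled extracranial (Lum at 4.54 and Dcn at 2.87), against 1.78% of all genes. In the other tumor 1 was higher (Fbln1 at -2.77), against 5.41%. The fibroblast markers summed to 4628 and 5985 CPM, their median log2 ratio was -0.31, and none was at 0.

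Macrophage and endothelial markers were higher in the tumor labelled extracranial, as Angptl4, Angptl7 and C1qtnf1 were. All 6 macrophage markers had intervals above 0 (29.2% of all genes; summed 977.8 and 2921 CPM, median 1.65), as had all 6 endothelial markers (105.1 and 239.4 CPM, median 1.20). The complement genes C1qa, C1qb and C1qc, whose globular domain gave the C1QTNF family its name, had log2 ratios of 1.57, 1.36 and 1.63 and summed to 1947 and 5594 CPM. Markers of adipocytes, a usual source of C1QTNF proteins and of Angptl4, were near the floor. Of 6, 1 was above the floor in the tumor labelled intracranial (Cfd, 10 and 0 counts) and none in the other. Hepatocyte markers were also near it, with Alb at 0 in both libraries.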

How the data were processed

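Values were raw counts of reads per gene, deposited without normalization for 2 tumors. For this, the authors isolated poly(A) RNA, built directional libraries, aligned single reads with STAR (2.7.9a) at default parameters to the mouse genome (GRCm39) and counted with featureCounts; the use of strand and of reads with several alignments is not given in the sources used here. Symbols (52083 of 55416 IDs), biotypes, exon lengths and overlaps came from release 21 of the mouse GENCODE annotation, on an older build.

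Libraries were scaled by the trimmed mean of M-values (TMM) in edgeR (4.0.16, R 4.3.3). Ratios were given the conditional exact binomial 95% interval for genes with 10 or more counts over both libraries, and counts of 3 or fewer were set to 3 for the ratio. Since neither location had a replicate, the quasi-likelihood test could not be fitted and no p-value was computed.

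The 10 genes, the 21 other lists and the limits were chosen with earlier results of these data known. Of each list, the genes farthest from an equal ratio by the nearer interval bound were named, up to 4, beside its defining genes and genes at 0. Exceptions to this rule, named after their values were seen, are Furin, Pdk4, Plin2, Cpt1a and Car9, the integrins, adiponectin receptors and angiopoietins given for their range, and the gene pairs whose counts were divided. No molecular identifiers are mentioned for the libraries, so reads may not be independent molecules and intervals cover counting error only. Alternatives comprised DESeq2 (1.42.0) size factors, total counts, upper quartile scaling and ratios relative to the mean log2 ratio of the fibroblast markers. Further ones were other count limits, the ratio alone, protein-coding genes only and a prior count of 2. Some genes of the lists are not reported here.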

Additional observations from a re-analysis of the deposited data

How the results depend on the processing

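No paired analysis was possible because only 1 tumor was given per location, and leaving out a library in turn was not possible either. Under the 3 other scalings, and relative to the fibroblast markers, 2 of the 10 genes were beyond 4-fold and 5 beyond 2-fold, with the main counts in each direction. For the fibroblast markers, the mean of their log2 ratios (0.08) was subtracted. This shift was small because ratios from -2.77 to 4.54 cancelled in the mean, so the setting is a weak check. Calls relative to their median (-0.31) were not computed. The same held for total counts without the 170 genes beyond 100-fold, which was chosen after seeing the data. Where the ratio alone was required, C1qtnf7 came in addition, which gave 3 genes beyond 4-fold. The median log2 ratio of the 10 genes ranged from -0.50 to -0.37. Among single genes, C1qtnf6 ranged from -0.11 to 0.02, so its sign depended on the scaling, and the ranges of the other 9 stayed on 1 side of 0, as for Angptl7 (0.83 to 0.96), C1qtnf3 (-2.89 to -2.76) and Angptl4 (1.61 to 1.73). Angptl7 moved outside its narrow counting interval with upper quartile scaling (0.96) and relative to the fibroblast markers (0.84), and C1qtnf3 in the latter (-2.88). Without the genes beyond 100-fold, Angptl1 (-1.349), Angptl7 (0.83) and C1qtnf3 (-2.89) lay outside theirs. C1qtnf1 was farther from 0 than C1qtnf3 with TMM, DESeq2 and upper quartile scaling, and C1qtnf3 was the farther with total counts (2.81 against -2.82), relative to the fibroblast markers, with a prior count of 2 and without the genes beyond 100-fold. The interval of Angptl2 spans 2-fold, so the scaling decides on which side its ratio falls. Without exon length, 2 of the 10 genes changed their rank in the tumor labelled intracranial and none in the other.

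The count of all genes beyond 4-fold, 1581, was 2542 with the ratio alone, where the interval is not required. It lay between 1155 and 1586 under the other alternatives. At this depth, C1qtnf2 and C1qtnf7, with 7 or 8 counts in a library, bear little weight.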

Other observations

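Among the lists not described above, meningeal and perineurial markers were split between the libraries. Of 7 genes, 1 was beyond 4-fold higher in the tumor labelled extracranial (1.78% of all genes). This was Aldh1a2, which makes retinoic acid (16 and 1420 counts, log2 ratio 6.85). On the other side, 1 was beyond 2-fold (9.77% of all genes), namely Foxc1, a forkhead factor of the developing meninges (168 and 26 counts, -2.32). The list median was -0.62. Cartilage markers held Col11a1 at 256 and 1561 counts (2.99), while the defining genes Acan (8 and 2 counts), Col2a1 (23 and 21 counts) and Matn1 (2 and 1 counts) had few counts in both libraries. Sox9, a transcription factor of cartilage and other lineages, had 23.1 and 12.4 CPM (log2 ratio -0.89), lower in the tumor labelled extracranial as C1qtnf3 was, and Hapln1, a matrix link protein, had 264 and 370 counts (0.86). The part of cartilage cells in the level of C1qtnf3 was not tested. Skeletal muscle markers were lower in the tumor labelled extracranial, with 5 of 5 beyond 2-fold (9.77% of all genes) and sums of 37.4 and 9.38 CPM.

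Lpl and Lipg, lipases that share most of their fold, exchanged their proportion between the tumors. There were 0.188 Lpl counts for each Lipg count (0.161 to 0.218) in the tumor labelled intracranial and, by the 95% interval, between 10.8 and 15.7 in the other. This pair was chosen after its values were seen.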
